A study of Homo sapiens with 2 samples.

Results

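The BEX and TCEAL genes are a family of small proteins whose genes stand together on the long arm of the X chromosome. From this family 9 genes were taken, BEX1, BEX2, BEX3, BEX4, TCEAL1, TCEAL3, TCEAL4, TCEAL8 and TCEAL9, of 30796 genes in the deposited matrix. They are a fixed list of names matched to Ensembl identifiers. The list was drawn up from measured values, namely their UMI counts in the 2 lines and their correlation between CAL51 cells, so both are given below as descriptions with no test. The other family genes, BEX5, TCEAL2, TCEAL5, TCEAL6 and TCEAL7, were looked up as well; TCEAL2 had no entry in the matrix.

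The study profiled single cells of human breast cancer lines with Drop-seq, in which a cell and a barcoded bead are enclosed in one oil droplet. Bead primers tag polyadenylated transcripts near the 3′ end with the barcode of the cell and a molecular tag, the unique molecular identifier (UMI), so that a molecule is counted once. The groups are the established lines MDAMB468 and CAL51, both labelled as triple-negative breast cancer. Neither label names a treatment or a change of genotype, and each line is represented by 1 library. Differences between the lines therefore lack replicates, and no p-value was computed. Intervals are 95% intervals and cover counting error only.

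BEX stands for brain expressed, X-linked, and TCEAL for transcription elongation factor A like, after a resemblance to the elongation factor TFIIS. Both groups arose by duplication in placental mammals and encode short, largely unstructured proteins without known enzymatic activity that act by binding other proteins. BEX3, once called NGFRAP1, binds the p75 neurotrophin receptor NGFR and is tied to cell death signalling. BEX2 has been found with the transcriptional partners LMO2 and LDB1, and several members have been described as silenced in tumours of different tissues, with BEX2 also studied in breast cancer cells.

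The MDAMB468 library held 306 barcodes and 5501900 UMIs, with a median of 10016.5 UMIs per barcode. The CAL51 library held 1346 barcodes and 16223444 UMIs, with a median of 8635, after 31 barcodes were left out because their 12-base sequence also occurred under the MDAMB468 name. Those 31 barcodes carried 135240 UMIs, or 0.827% of all CAL51 UMIs. Markers went with the labels in part. EPCAM (867 CPM, that is UMIs scaled to a library total of 1000000, in MDAMB468 and 283 in CAL51), KRT8 (764 and 919) and KRT18 (555 and 1555) were present in both lines, while KRT7 was at 953 CPM in MDAMB468 and at 0 of 16223444 UMIs in CAL51. Of 14 epithelial markers, 10 were at least 4-fold higher in MDAMB468 and none in CAL51, and 3 were at 0 in CAL51. ESR1 and PGR had at most 3 UMIs in either line, and ERBB2 had 7.09 CPM in MDAMB468 and 16.1 in CAL51.

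The stretches around 1 short word shared by the family's promoters are shown first, because they run through members that differ in level between the lines. RefSeq promoters (GRCh38.p14, 250 bases before to 50 after each transcript start) were found for all 9 members. The word CACGTG, the core of the E box bound by basic helix-loop-helix factors, lay upstream of the start of at least 1 RefSeq transcript in 8 of them. The stretches below are written 5′ to 3′ on the gene's own strand, end before that transcript's start, and carry the word in capitals.
BEX1, chrX:103064207-103064236, minus strand: gcggtgacgcacggccctCACGTGaccggg
BEX2, chrX:103310998-103311027, minus strand: tggcgatgacaacagccaCACGTGatcggc
BEX3, chrX:103376473-103376502, plus strand: gtggtgacgcgcggccctCACGTGacccag
BEX4, chrX:103215071-103215100, plus strand: tggcgatgacaacagcccCACGTGaccggc
TCEAL8, chrX:103255175-103255204, minus strand: cagtgatgacgcgactctCACGTGaccagg
TCEAL9, chrX:103356451-103356480, plus strand: cactggtgacgtagatctcatgtgaccagg
TCEAL4, chrX:103585487-103585514, plus strand: ctcctgggctgcggcattCACGTGatct
TCEAL3, chrX:103607865-103607894, plus strand: ctcgggtgacgcggcgctCACGTGacccgc
TCEAL1, chrX:103628901-103628930, plus strand: gcagtgacgcgcgtccctCACGTGaccagg
The first base of the word lay 10 bases (TCEAL4) to 80 bases (TCEAL3) before the transcript start. TCEAL9 did not contain these letters in its 300 bases, and the stretch printed for it is the one that matched TCEAL8 best, with 23 of 30 bases the same. Where the table held several promoters of a gene, the word was in 1 of 3 for BEX3, 1 of 2 for TCEAL1 and 2 of 2 for BEX4. The starts are those of the RefSeq transcript chosen: in GENCODE 29, whose gene positions are given below, 6 of the 8 stretches with the word lie wholly and 2 partly within the interval of the gene, which covers all of its transcripts.

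CACGTG reads the same on both strands and was found in at least 1 promoter of 88.9% of the members, against 8.77% of 27305 genes in the same table. The longer word TCACGTGA, which contains it and also reads the same on both strands, was found in 6 of the 9 members against 1.18% of all genes. BEX2 and BEX4 have the short word alone. All 3 members present in both lines (TCEAL1, TCEAL3 and TCEAL4) contain the short word, as do 5 of the 6 that MDAMB468 nearly lacked. Among the ARMCX and GPRASP genes, neighbours that encode armadillo-repeat and receptor-sorting proteins, 5 of 8 promoters contain it, and among other Xq22 genes 4 of 43 do (9.30%). The word was shown for being shared by the members, which arose by duplication and have stretches that resemble each other. Their matches are therefore not separate occurrences. The comparison with all genes was not matched for base content. A match of letters is a description and no measure of binding.

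In MDAMB468, 6 of the 9 members were at or near 0, whereas CAL51 expressed all 9. BEX1 had 0 UMIs in MDAMB468 and 898 in CAL51, which is 55.4 CPM (51.8 to 59.1) and at least 102-fold higher in CAL51. The bound sets the zero at 3 UMIs in the MDAMB468 library, or 0.545 CPM. BEX2, which was 0 against 3162 UMIs, reached 195 CPM in CAL51 (188 to 202) and was at least 357-fold higher there. BEX4, named as a regulator of microtubule acetylation, had 0 against 1829 UMIs, or 113 CPM (108 to 118), at least 207-fold higher in CAL51. No BEX member was seen at all among the 5501900 UMIs of MDAMB468.

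BEX3, the p75 receptor partner, had the highest level of the family, with 9537 UMIs in CAL51 and 0 in MDAMB468. Its 588 CPM (576 to 600) put it at least 1078-fold higher in CAL51. On the log2(CPM + 1) scale it was the gene with the fifth lowest difference of MDAMB468 minus CAL51, at -9.20, among 15347 genes with at least 20 UMIs over both lines. This scale shrinks differences at low counts and, where a line is at 0, its size is set by the added 1 CPM.

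TCEAL9, earlier named WBP5 for its binding to a WW domain, came next with 8244 UMIs in CAL51 against 1 in MDAMB468. The levels were 508 CPM (497 to 519) and 0.182 CPM, a ratio of 2796 whose counting interval runs from 502 to 110442. TCEAL8 had 1635 UMIs in CAL51, or 101 CPM (96.0 to 106), against 2 in MDAMB468, a ratio of 277 (76.6 to 2291). The log2 differences of these genes were -8.75 for TCEAL9 and -6.22 for TCEAL8, beside -7.61 for BEX2, -6.83 for BEX4 and -5.82 for BEX1.

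The remaining members, TCEAL1, TCEAL3 and TCEAL4, were present in both lines and slightly higher in MDAMB468. TCEAL4 had 1894 UMIs in MDAMB468 and 3671 in CAL51, that is 344 CPM (329 to 360) against 226 (219 to 234), 1.52-fold higher in MDAMB468 (1.44 to 1.61). TCEAL3 had 432 and 763 UMIs, or 78.5 CPM (71.3 to 86.3) against 47.0 (43.8 to 50.5), 1.67-fold higher in MDAMB468 (1.48 to 1.88). TCEAL1, a nuclear phosphoprotein that modulates transcription, had 261 and 586 UMIs, or 47.4 CPM (41.9 to 53.6) against 36.1 (33.3 to 39.2), 1.31-fold higher (1.13 to 1.52). These 3 differences were 0.60, 0.73 and 0.38 on the log2 scale, beside a median of -0.13 over all genes, and kept their sign under every scaling tried; with TMM factors, which moved the median of all genes by -0.12, they were 0.47, 0.60 and 0.25. With 1 library per line, the spread between cultures that these small differences would have to exceed is not known.

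By the size used here, a log2 difference of 2 or more, 6 of the 9 members were at least 4-fold higher in CAL51 and 0 in MDAMB468. Over all genes the shares were 5.84% and 7.38%. All 9 passed the minimum of 20 UMIs, the 6 through CAL51 alone. By the count of molecules, 6 of 9 members had at least 100 UMIs in CAL51 and at most 3 in MDAMB468, beside 3.71% of the 9793 genes with at least 100 UMIs in CAL51. The members were chosen on this contrast, so nothing is read from these counts.

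Summed, the 6 nearly absent members made up 1560 CPM in CAL51 and 0.545 CPM in MDAMB468, which is 0.0350% of the CAL51 level (0.00721 to 0.102%). The 3 members present in both lines summed to 470 CPM in MDAMB468 and 309 in CAL51. Only 3 UMIs of the 6 were seen in MDAMB468, each in a different barcode with 15294, 35772 or 74266 UMIs. The TCEAL9 UMI was in the largest of these, whose barcode sequence is one of those found in both libraries.

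**Figure D1:**
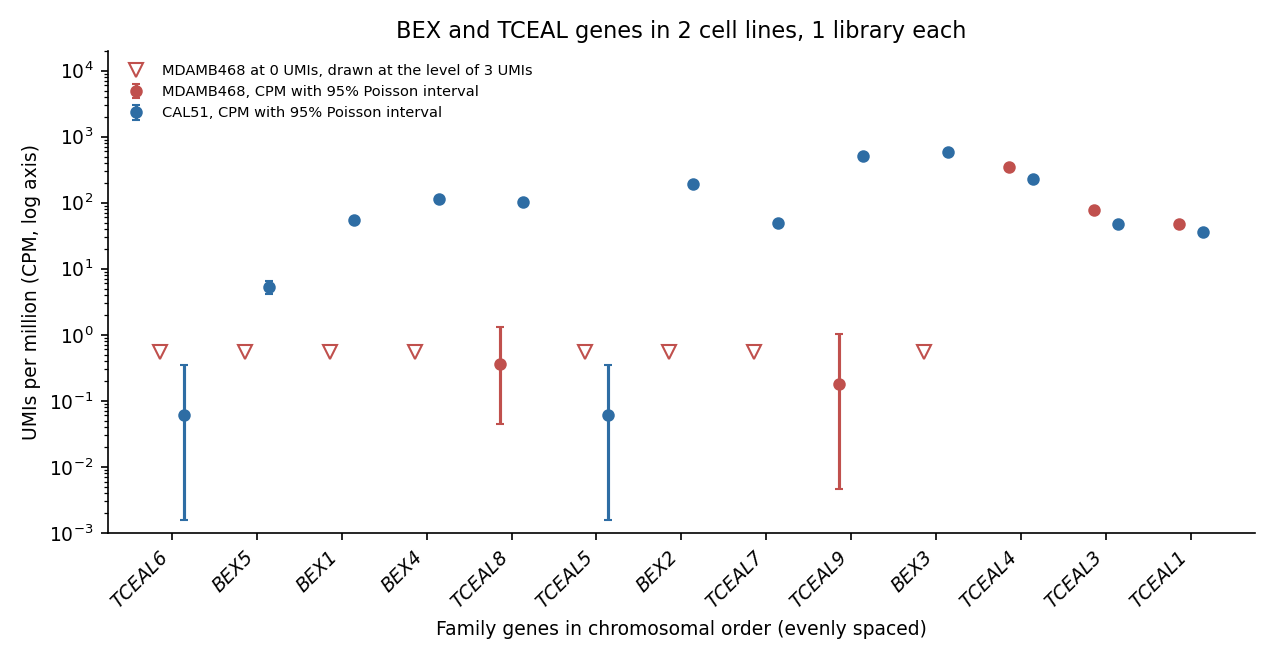
Level in CPM (log axis) of the 13 BEX and TCEAL genes with an entry, in chromosomal order, for MDAMB468 (red) and CAL51 (blue), 1 library each; bars are 95% Poisson intervals, mostly smaller than the points, and open triangles mark genes at 0 UMIs, drawn at the level of 3 UMIs. The genes from BEX1 to BEX3 in this order are at 0 to 2 UMIs in MDAMB468. TCEAL4, TCEAL3 and TCEAL1 each differ far less between the lines, by 1.31- to 1.67-fold.

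Levels of different genes are compared here as molecules, since 1 UMI is counted per 3′ end and no length scaling is needed. In CAL51 the order was BEX3, TCEAL9, TCEAL4, BEX2, BEX4, TCEAL8, BEX1, TCEAL3 and TCEAL1, and the counting intervals of neighbours in this order did not overlap. In MDAMB468 the order was TCEAL4, TCEAL3 and TCEAL1, again with intervals apart, followed by TCEAL8 and TCEAL9, whose intervals overlapped. By counted UMIs both lines thus ranked TCEAL4 above TCEAL3 and TCEAL3 above TCEAL1. The place of TCEAL3 is uncertain, since it overlaps TCEAL1 and its 3′ end resembles those of TCEAL5 and TCEAL6, as described below.

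The 31 CAL51 barcodes left out held 94 UMIs of the 9 members, or 695 CPM (562 to 851), against 1869 CPM in the rest of CAL51 and 471 in MDAMB468. For the 6 nearly absent members they stood at 26.5% of the CAL51 level, and for the other 3 at 90.8%. The same barcodes contained 347 UMIs of KRT19 and 106 of KRT7, genes that were far higher in MDAMB468 or at 0 in the rest of CAL51. With these barcodes kept, BEX3 was at 585 CPM, TCEAL9 at 505 and TCEAL4 at 226 in CAL51, and the count of 6 of 9 stood.

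Among the other family genes, TCEAL7 followed the same division with 0 UMIs in MDAMB468 and 810 in CAL51. It reached 49.9 CPM (46.5 to 53.5), at least 91.6-fold higher in CAL51. BEX5 had 0 and 85 UMIs, or 5.24 CPM in CAL51, at least 9.61-fold higher. TCEAL5 and TCEAL6 had 0 UMIs in MDAMB468 and 1 in CAL51, which gives no fold. In the last 300 bases of the annotated transcripts, where 3′ reads fall, TCEAL3 was 89.6% identical to TCEAL6 and 81.6% to TCEAL5, and BEX1 was 78.5% identical to BEX2, beside a median of 47.7% over 91 pairs of family genes. How reads that fit several of these genes were treated is not stated in the sources, so the values of TCEAL3, TCEAL5 and TCEAL6 in particular are uncertain.

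The division between the lines followed the order of the genes on the chromosome. In GENCODE 29 (GRCh38) the 9 members span 568 kb, chrX:103062651-103630953. From the low coordinate upward they run BEX1 (chrX:103062651-103064240), BEX4 (chrX:103215092-103217246), TCEAL8 (chrX:103252995-103255203), BEX2 (chrX:103309346-103311046), TCEAL9 (chrX:103356489-103358462) and BEX3 (chrX:103376340-103378077), which are the 6 that MDAMB468 nearly lacked. TCEAL7 lies between BEX2 and TCEAL9 (chrX:103330196-103332326) and was at 0 in MDAMB468 as well. After a gap of 198 kb come TCEAL4 (chrX:103576231-103587736), TCEAL3 (chrX:103607451-103629690) and TCEAL1 (chrX:103628704-103630953), the members present in both lines.

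Of 17 genes with an entry in this span, 12 had at least 20 UMIs. Apart from the family these were NXF3, an mRNA export factor relative, and a processed pseudogene within it, with 2 against 30 and 3 against 25 UMIs. On these few counts NXF3 was 5.09-fold higher in CAL51 (1.29 to 43.9). The pseudogene had a ratio of 2.83 with an interval that includes 1 (0.862 to 14.6). The gap itself held RAB40A and 2 noncoding genes with 0 UMIs in MDAMB468 and 7 to 12 in CAL51. TCEAL3 and TCEAL1 overlap on the same strand in this annotation, and TCEAL3-AS1, with 1 UMI in each line, lies opposite TCEAL3. Whether the counting used strand is not stated in the sources.

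**Figure D2:**
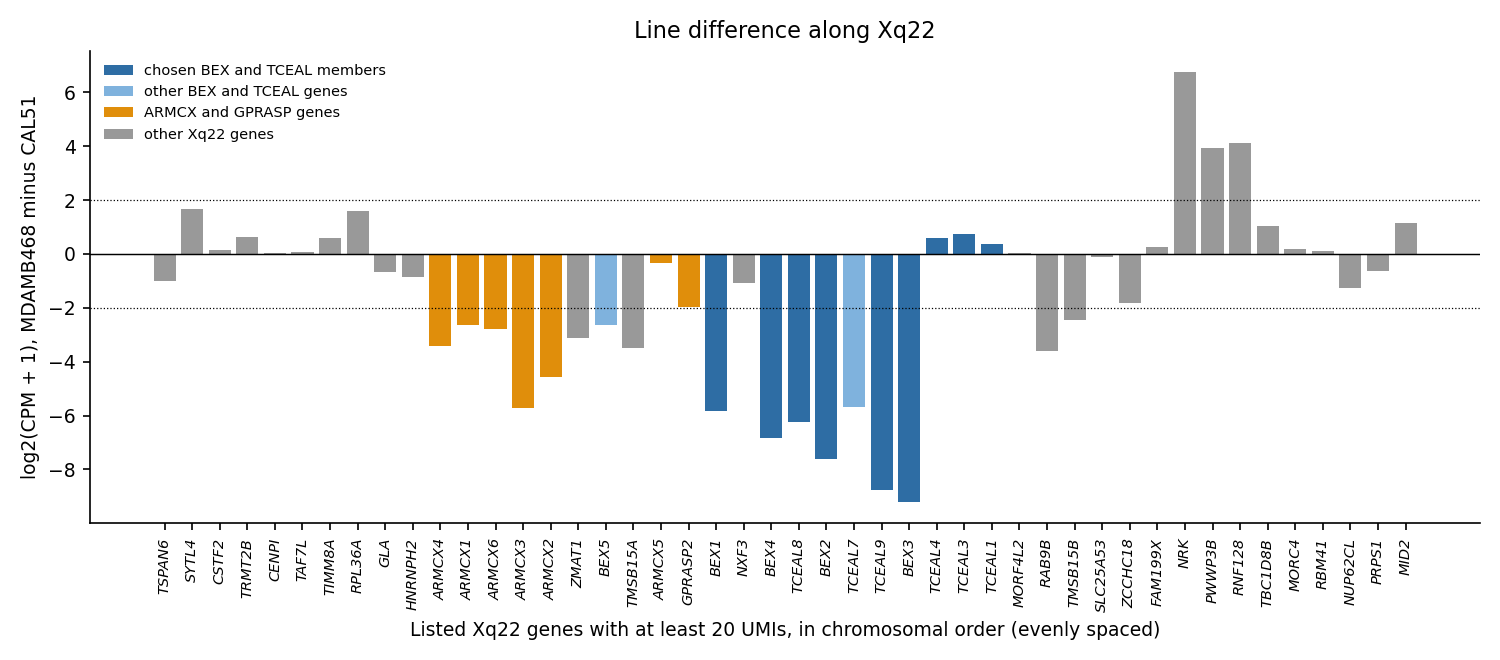
Difference of log2(CPM + 1), MDAMB468 minus CAL51, for listed Xq22 genes with at least 20 UMIs in chromosomal order (evenly spaced, not to distance), coloured by group; dotted lines mark a difference of 2. Values below 0 are higher in CAL51: BEX3 reaches -9.20 and ARMCX3 -5.73, while TCEAL4, TCEAL3 and TCEAL1 lie between 0.38 and 0.73 and NRK at 6.75.

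The ARMCX and GPRASP genes lie at lower coordinates than the 9 members, interspersed with the family genes TCEAL6 and BEX5. Of 7 with at least 20 UMIs, 5 were at least 4-fold higher in CAL51 and none in MDAMB468, with a median log2 difference of -2.79 beside -0.13 over all genes. ARMCX3, a mitochondrial outer membrane protein, had 0 UMIs in MDAMB468 and 847 in CAL51, at least 95.7-fold higher in CAL51. ARMCX2 had 0 and 369 UMIs, and ARMCX4 had 1 and 187. ARMCX5, with 62 and 237 UMIs, was an exception, at 11.3 CPM in MDAMB468 and 14.6 in CAL51, a ratio of 1.30 (0.976 to 1.74).

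Other Xq22 genes were split. Of 28 with at least 20 UMIs, 4 were at least 4-fold higher in CAL51 and 3 in MDAMB468, and their median difference was 0.06. TMSB15A, a thymosin, had 65 UMIs in MDAMB468 and 2350 in CAL51, 12.3-fold higher in CAL51 (9.58 to 15.9), while RAB9B and ZMAT1 had 0 in MDAMB468 with 181 and 124 in CAL51. NRK, a kinase gene farther along the chromosome, had 586 UMIs in MDAMB468 and 0 in CAL51, at least 576-fold higher in MDAMB468, and RNF128 and PWWP3B had 95 and 84 UMIs in MDAMB468 against 1 each in CAL51. Over the X chromosome, 22 of 316 genes with at least 100 UMIs in CAL51 had at most 3 in MDAMB468 (6.96%). Of these 22, 7 were family genes, 3 ARMCX genes, 2 other Xq22 genes and 10 lay elsewhere on the chromosome. The median difference of 518 X-linked genes was 0.16.

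Genes of the pathways in which the proteins have been placed did not, taken as lists, share the members' division. Of 11 neurotrophin and p75 receptor genes with at least 20 UMIs, 2 were at least 4-fold higher in CAL51 and 1 in MDAMB468, with a median of -0.06. Over all genes the shares were 5.84% and 7.38%, and the median was -0.13. RIPK2, a kinase of p75 and innate immune signalling, was at 45.1 CPM in MDAMB468 and 236 in CAL51, 5.23-fold higher in CAL51 (4.60 to 5.98). MAGED1, of the same list, was 4.26-fold higher in CAL51 (3.57 to 5.12). NTRK2, the BDNF receptor, had 47 UMIs in MDAMB468 and 0 in CAL51. NGFR, the receptor that BEX3 binds, had 3 UMIs in MDAMB468 and 0 in CAL51, so neither line had a measurable level of it.

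Of 28 elongation genes, 0 were at least 4-fold higher in CAL51 and 1 in MDAMB468, beside 5.84% and 7.38% of all genes. Their median was -0.22. TCEA1, which encodes TFIIS itself, was 3.31-fold higher in CAL51 (3.07 to 3.58), at 439 CPM against 133, and ELL2, of the super elongation complex, was 7.10-fold higher in MDAMB468 (5.55 to 9.15). Of 4 genes for reported BEX partners, LDB1 was 2.02-fold higher in CAL51 (1.48 to 2.80), and RUNX3 had 24 UMIs in MDAMB468 and 1 in CAL51. Neural markers, listed because BEX genes are known from brain, were mostly few: of 21, 6 had no entry and 8 had at least 20 UMIs, of which 2 were at least 4-fold higher in each line. Their sum was 99.2 CPM in MDAMB468 and 161 in CAL51, and most of the CAL51 sum was MAP2, a microtubule-associated protein, at 94.4 CPM against 26.9 in MDAMB468 (3.51-fold, 2.96 to 4.18). UCHL1, a neuronal ubiquitin hydrolase, had 9 and 260 UMIs, and TUBB3, neuronal tubulin, had 174 and 49. Stromal genes summed to 5.27 CPM in MDAMB468 and 70.0 in CAL51, where COL1A2 made up 53.2 CPM, while COL1A1 had 22 and 11 UMIs. Immune and endothelial markers summed to 20.4 CPM in MDAMB468, 18.5 of it KDR, and to 0.986 in CAL51. The part of these markers in the members' difference was not tested.

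Across CAL51 barcodes the share with a UMI differed widely among the members. Each barcode was thinned at random to 2500 UMIs, a depth that every barcode reached, so that shares do not depend on depth. At that depth BEX3 was seen in 73.8% of 1346 CAL51 barcodes (71.4 to 76.2%) and TCEAL9 in 64.6% (61.9 to 67.1%). TCEAL4 followed with 42.5%, BEX2 with 36.8%, BEX4 with 21.8% and TCEAL8 with 21.5%, then TCEAL3 with 11.4%, TCEAL1 with 9.66% and BEX1 with 8.92%. Without thinning the shares were 93.8% for BEX3, 91.6% for TCEAL9, 80.1% for TCEAL4, 69.7% for BEX2, 56.0% for BEX4, 54.2% for TCEAL8, 36.3% for TCEAL3, 29.9% for TCEAL1 and 20.1% for BEX1. No other cell type was in either library to give the share that free RNA alone would produce.

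In MDAMB468 the thinned share was 56.5% for TCEAL4 (50.8 to 62.2%), 19.6% for TCEAL3 (15.3 to 24.5%) and 10.8% for TCEAL1 (7.54 to 14.8%). Their unthinned shares were 83.7%, 53.9% and 45.4%. The other 6 members were seen in 0 of 306 thinned barcodes. With the zero set at 3 barcodes this allows a share of barcodes with a UMI of up to 0.980%, and the exact interval of each member reaches 1.20%. The 306 barcodes include the 64 that lie 1 base from a larger one. These shares and intervals count them as separate cells. Thinned, 23 of 1346 CAL51 barcodes had none of the 9 members (1.71%, 1.09 to 2.55%), and 56 had none of the 6 that MDAMB468 nearly lacked (4.16%). Before thinning these numbers fell to 1 and 4 barcodes. All 6 were seen together in 118 unthinned CAL51 barcodes.

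**Figure D3:**
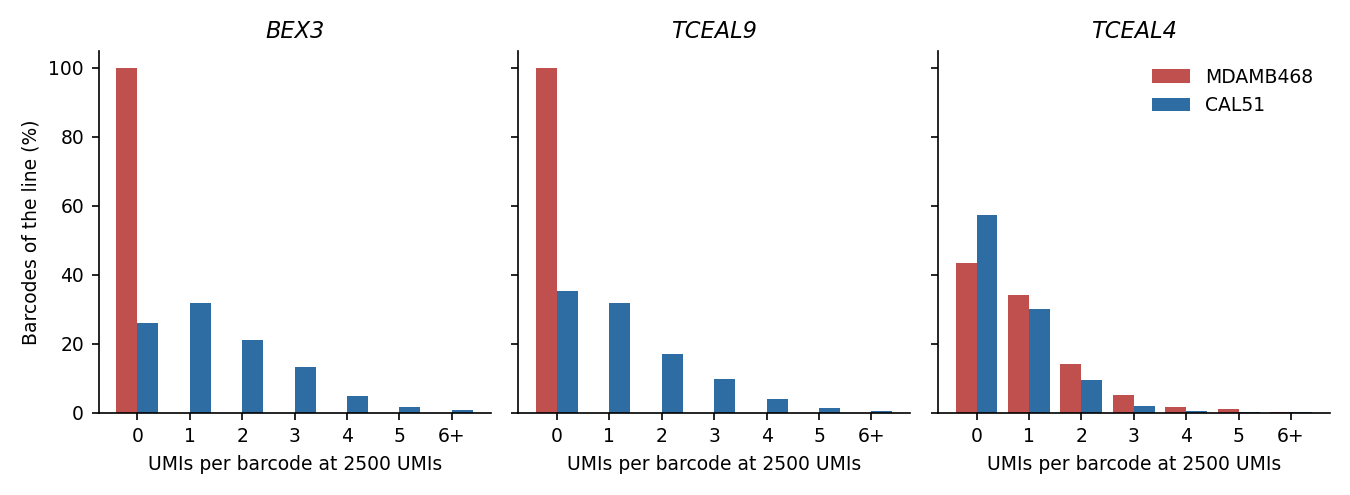
Share of barcodes (%) by the number of UMIs of BEX3, TCEAL9 and TCEAL4 per barcode after thinning to 2500 UMIs, for MDAMB468 (red, 306 barcodes) and CAL51 (blue, 1346 barcodes). All MDAMB468 barcodes stand at 0 for BEX3 and TCEAL9, whereas 73.8% and 64.6% of CAL51 barcodes have at least 1 UMI; for TCEAL4 both lines have UMIs, in 56.5% and 42.5%.

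Variation between CAL51 cells differed among the members. The Fano factor, the variance over the mean of the thinned counts, is 1 for counting noise alone. It was 1.84 for BEX1 and 1.33 for TCEAL9 and lay between 1.01 (BEX4) and 1.19 (TCEAL4) for the other 7. Over 4248 genes with a mean of at least 0.1 UMIs the median was 1.07, and 95% of genes were at or below 1.31, so BEX1 and TCEAL9 exceeded that level. These genes were not matched for mean, and at equal relative spread the Fano factor rises with the mean. The mean was 1.22 UMIs for TCEAL9 and 0.131 for BEX1, so the value of TCEAL9 does not place it above the less abundant members in relative spread. TCEAL7 varied more than any of the 9 members, with a Fano factor of 2.72, and its 810 UMIs lay in 190 barcodes with up to 55 in one. BEX1 was similar, with 898 UMIs in 270 barcodes, whereas the 586 UMIs of TCEAL1 were spread over 402.

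Measured correlations between members from cell to cell were weak. The median Pearson r of log2(count + 1) over 36 pairs was 0.028 across 1346 thinned barcodes, from -0.060 for BEX2 with BEX3 to 0.111 for BEX1 with TCEAL8. Over all pairs of the 4248 genes the median was -0.000207, and 95% of pairs lay below 0.0477; of the 36 pairs, 11 were above that value. These barcodes share 1 library and its culture, and most counts are 0 or 1. Over the alternatives tried, the median of the members ran from -0.00243 at 1000 UMIs per barcode to 0.0345 at 5000, with 0.0239 for a second seed of the thinning. Correlations this weak in sparse counts are no finding, and they do not show whether the members vary together. Pairs within the 6 nearly absent members had a median r of 0.039, pairs within the other 3 had 0.040, and pairs between them 0.023. This order did not hold at 1000 UMIs per barcode, where the medians were -0.00323, -0.0133 and 0.00495. TCEAL7 had r from -0.00859 with TCEAL1 to 0.0787 with TCEAL9.

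**Figure D4:**
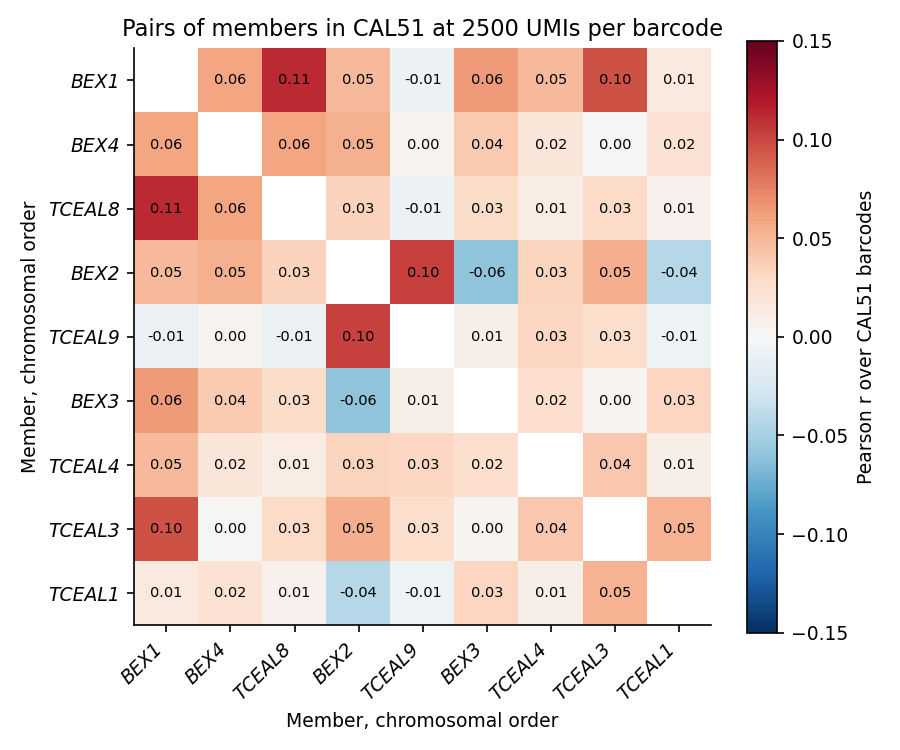
Pearson r between members over 1346 CAL51 barcodes thinned to 2500 UMIs, in chromosomal order; the colour scale ends at 0.15 in each direction and the diagonal is left blank. No pair exceeds 0.111 (BEX1 with TCEAL8), and BEX2 with BEX3 is lowest at -0.060.

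Outside the family, the genes whose counts in CAL51 cells went most with the summed members were GPC3 (r = 0.162), a glypican, TUBA1A (0.134), a tubulin, PLK2 (0.126), a kinase, COX7C (0.116), a cytochrome oxidase subunit, and ACTG1 (0.109), an actin. The lowest were MCM7 (-0.118), of the replicative helicase, MIER1 (-0.103), EIF4A2 (-0.103), GINS2 (-0.0996), also of the helicase, and MKI67 (-0.0991), the proliferation marker. Over 4140 genes, 95% of values lay between -0.0587 and 0.0580. All of these are weak, are measured over the same 1346 barcodes and mark the ends of a wide list.

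By cell cycle phase, called from lists of S and G2/M genes, the summed members were highest in the few CAL51 barcodes called G1. They stood at 2200 CPM in 125 G1 barcodes (2119 to 2284), 1744 in 405 S barcodes (1704 to 1785) and 1878 in 816 G2/M barcodes (1853 to 1904). Median depth was 6889, 7843 and 9468.5 UMIs, so phase and depth moved together. The G2/M level over the G1 level was 0.854 for the sum (0.820 to 0.889), and it was lowest for TCEAL1 (0.601, 0.463 to 0.791) and BEX2 (0.616, 0.551 to 0.690). TCEAL9 went the other way, with a ratio of 1.19 (1.09 to 1.30), and TCEAL8 (1.08, 0.898 to 1.32) and TCEAL3 (0.887, 0.684 to 1.17) had intervals that include 1. TCEAL7 had a ratio of 0.377 (0.315 to 0.455), which became 0.602 when phases were called without thinning. In MDAMB468, where the sum consists almost wholly of TCEAL4, TCEAL3 and TCEAL1, the same ratio was 0.917 (0.813 to 1.04).

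CAL51 barcodes were also clustered with the family genes left out, which gave 5 clusters of 500, 336, 252, 249 and 9 barcodes, numbered 0 to 4. The summed members differed little between these 5 clusters, though more between the finer ones described below. The highest was 1.15 times the lowest (1.12 to 1.20) among the 4 larger clusters, and 1.20 times with the fifth included. The limit of at least 50 barcodes for the larger clusters was chosen after seeing the data. Single members differed more. BEX1 was at 40.8, 117, 47.0, 10.8 and 80.0 CPM in clusters 0 to 4, and its level in cluster 1 was 10.8 times that in cluster 3 (7.59 to 15.9).

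Cluster 1 was led by NTS, a neuropeptide, COL2A1, a collagen, and ACTC1, an actin, and cluster 3 by CD24, TSTD1 and COL1A2. BEX2 was at 187, 184, 167 and 261 CPM in clusters 0 to 3, highest in cluster 3, where BEX1 was lowest, and much alike in clusters 0 and 1, where BEX1 differed. BEX3 was at 586, 676, 582 and 483 CPM, highest in cluster 1 and lowest in cluster 3 (1.40-fold, 1.31 to 1.49). TCEAL9 was at 486, 516, 490 and 558 CPM, highest of these in cluster 3, beside 571 (424 to 753) in the small cluster 4. TCEAL7 was at 17.3, 112, 33.6 and 48.5 CPM, and stood among the 10 leading genes of cluster 1 although it had not entered the clustering.

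Cluster 2 was led by PIF1 and the mitotic gene CENPE, and 99.6% of its barcodes were called G2/M. Among the 4 larger clusters BEX2 was lowest there, 1.56-fold below cluster 3 (1.40 to 1.73). BEX4 (122 CPM, 112 to 134) and TCEAL4 (238 CPM, 223 to 254) had intervals there that overlapped those of at least 1 other large cluster. Cluster 4 comprised 9 barcodes led by the interferon-induced genes IFIT2 and IFIT1, and its member counts were small, with 59 UMIs of BEX3 and 7 of BEX1. Median depth was 7536.5, 8868, 12195.5, 8544 and 9264 UMIs in clusters 0 to 4. With finer clusters the summed members ranged from 1580 CPM in 109 barcodes to 2170 CPM in 104, a ratio of 1.37 (1.30 to 1.46). There BEX1 ranged further, from 6.54 CPM in 199 barcodes to 222 CPM in 104, a ratio of 33.9 (19.5 to 64.3). BEX2 was at 219 CPM in the finer cluster where BEX1 was highest.

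**Figure D5:**
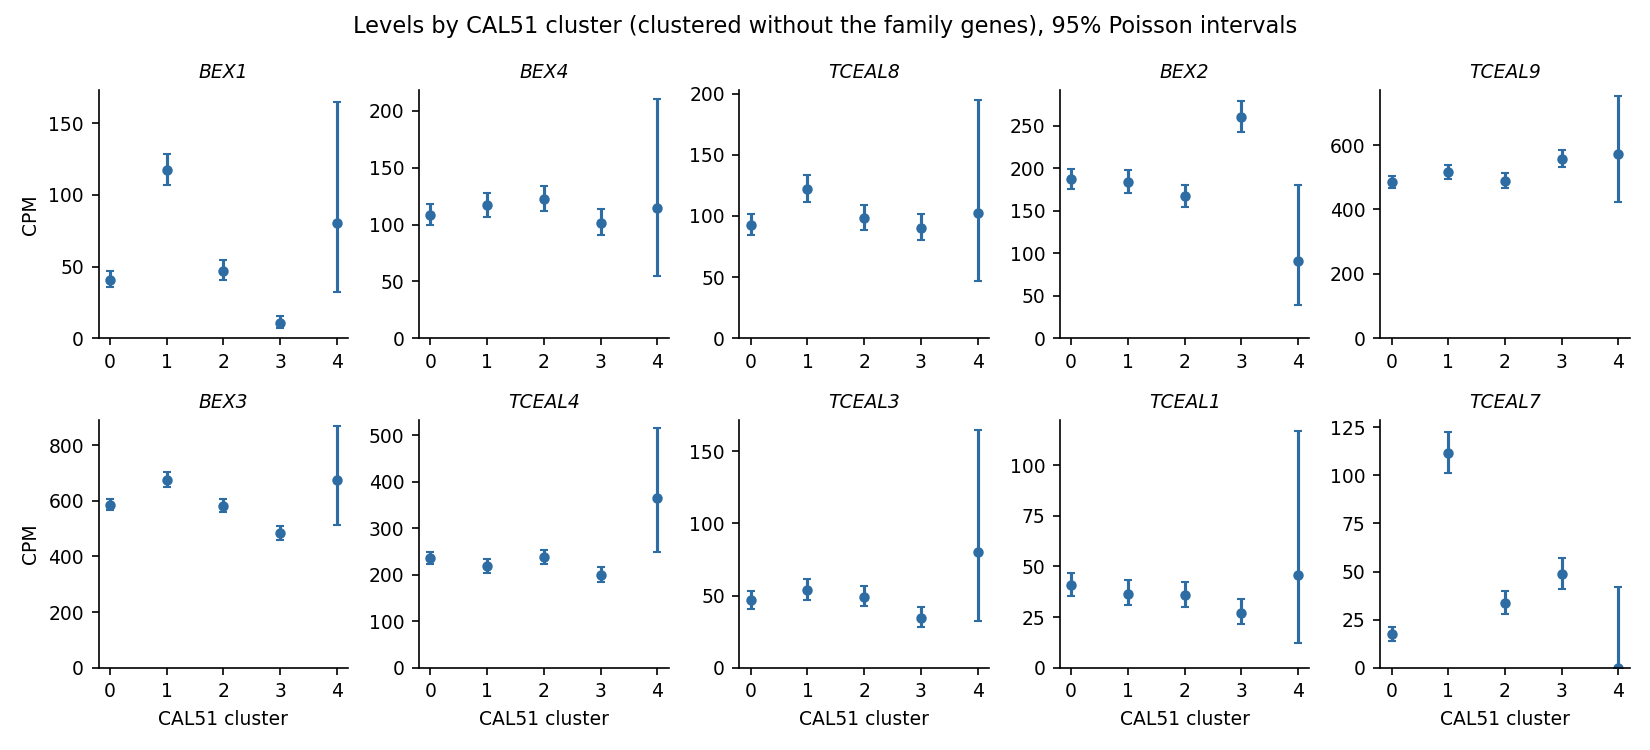
Level in CPM of each member and of TCEAL7 in 5 CAL51 clusters computed without the family genes (500, 336, 252, 249 and 9 barcodes); bars are 95% Poisson intervals and each panel has its own axis from 0. BEX1 and TCEAL7 peak in cluster 1 at 117 and 112 CPM, BEX2 peaks in cluster 3 at 261, and the wide bars of cluster 4 come from 9 barcodes.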

How the data were processed

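Single-cell 3′ libraries of MDAMB468 and CAL51 were read from 1 matrix of raw UMI counts per gene and barcode, deposited by the authors. The submitters' processing notes name STARsolo; build, annotation and barcode selection are not given in the sources used. The deposited barcode names start with the cell line, which gave each barcode its library. Ensembl identifiers were matched to symbols in a gene name table and to positions in GENCODE 29.

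The members and gene lists were chosen with earlier results of these data known. Barcode sequences found under both line names were left out of CAL51. UMIs were summed per line and scaled to CPM; differences are log2(CPM + 1). Sums have exact Poisson intervals, shares exact Clopper-Pearson intervals and folds exact conditional intervals, all at 95%; a zero was set at 3 counts. No test was possible with 1 library per line. Genes named are the 9 members and 5 other family genes, the highest and lowest difference in each list, Xq22 genes with a difference of 3 or more, and 5 genes at each end of the correlation. Other genes, such as NGFR, MAP2, EPCAM, KRT8, KRT19, ESR1, PGR and the cluster leaders, were chosen after their values were seen. Counts per barcode were thinned to 2500 UMIs for shares, Fano factors, correlations and phases. Clustering used counts normalised to 10000 per barcode, 2000 variable genes without the family, 30 components, 15 neighbours and Leiden resolution 0.5. Doublets were not removed. TMM factors came from edgeR 4.0.16 in R 4.3.3, and all else from Python 3.11.15 with scanpy 1.11.5, leidenalg 0.10.2, scipy 1.17.1, Biopython 1.88, numpy 2.4.6 and pandas 2.3.3. Line differences, and correlations and Fano factors after thinning, were also computed on simulated data with known answers. Phase calls, clustering and sequence comparisons were not.

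Alternatives covered the pseudocount, scaling, barcode sets, thinning depth, correlation measure, phase calls and cluster resolution.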

Additional observations from a re-analysis of the deposited data

Results flagged for a closer look

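The 31 CAL51 barcodes that were left out, because their sequences also occur under the MDAMB468 name, lie outside the comparison of the lines and held 94 UMIs of the 9 members. That is 695 CPM, or 37.2% of the 1869 CPM in the rest of CAL51, so the members were lower in these barcodes. Of the 94, 56 were of the 6 members nearly absent from MDAMB468.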

How the results depend on the processing

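No paired analysis was possible because each line has 1 library. No line difference of a member changed sign, and 6 of 9 members were at least 4-fold higher in CAL51 in every alternative in which they were counted. The median correlation between members, 0.028, was -0.00243 at 1000 UMIs per barcode. The pseudocount sets the size of differences against genes at 0: the median difference of the members was -9.12 with 0.1 CPM and -3.42 with 10 CPM, beside -6.22. In the same order the median was -5.76 and -0.67 for ARMCX and GPRASP genes, 5.89 and 2.81 for epithelial markers, and -4.81 and -0.52 for stromal markers, which were at -1.19 with no filter on low counts. The median of the elongation genes was -0.35 with TMM factors, -0.13 with median of ratios factors and -0.13 without mitochondrial and ribosomal protein genes in the total. The median share of CAL51 barcodes with a UMI over the members, 21.8%, was 9.66% at 1000 UMIs and 56.0% without thinning, and their median Fano factor, 1.16, was 1.05 at 1000 UMIs. At Leiden resolution 0.2 all CAL51 barcodes fell into 1 cluster, so the ratio between clusters was 1. At resolution 1 the ratio for the summed members was 1.37. The share of all genes at least 4-fold higher in CAL51 ranged from 1.73% with 10 CPM to 9.65% with 0.1 CPM. Depth limits the members at 0 in MDAMB468 to bounds, and counts of TCEAL1 and TCEAL3 per barcode to mostly 0 or 1. BEX1 was also at 0 in most CAL51 barcodes, but its 898 UMIs lay in 270 barcodes with up to 22 in one. Variation between cultures and library preparations was not measured.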
